A study of Mus musculus with 12 samples.

Results

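The genes of the primitive streak and of early mesoderm stand for the stage that cells leave before they become cardiac precursors (CPs), and the regions bound by BRG1 in CPs were examined at 10 of them. These were T, Eomes, Mesp1, Mesp2, Mixl1, Gsc, Lhx1, Tbx6, Pdgfra and Evx1, taken by name out of 22350 protein-coding genes on the chromosomes that carry a region. A distinct region was assigned to a gene's promoter when it overlapped 1 kb either side of an annotated transcription start site (TSS), to its body when it overlapped any base between the ends of the gene, and to its window when it lay in the gene or within 100 kb of either end. ChIPseq, which sequences the DNA recovered with a protein after crosslinking, was performed with an antibody against BRG1 on wild-type mouse W4/129S6 embryonic stem cells, a single line, that had been differentiated to CPs through embryoid bodies given VEGF, Activin and BMP4 and a monolayer given FGFs. The list rests on 2 BRG1 ChIP libraries and 1 input library of these cells, which share 1 list of positions. How they were combined is not known. Wild-type cardiomyocytes and the lines without the BAF subunits BAF170 or BAF60c make up the other 9 of 12 libraries, which were not analysed here, and RNA was not used.

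The list had 4791 rows and 3473 distinct regions, with a median width of 360 bp. That it is a list of CPs rests on its label and on its number of rows, which the paper gives for CP regions. Its number of distinct regions, however, is the one given there for cardiomyocyte regions. The list holds no height, score or value per library, so depth is unknown. No spread between replicates can be given, and no comparison below carries a test. A gene without a listed region may be unbound or below the authors' threshold.

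BRG1 is the ATPase of the BAF chromatin remodelling complexes, which move or evict nucleosomes and so change how accessible a promoter or enhancer is. The primitive streak forms under Nodal, WNT, BMP and FGF signals, and cells that pass through it become mesoderm or definitive endoderm. T (brachyury) and Eomes, both T-box transcription factors, and Mixl1, a homeobox factor, are switched on there, Mesp1 marks the early cardiac mesoderm that follows, and most of these genes are switched off again as CPs form.

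Of the 10 genes, only Mixl1 had a region at a promoter, and it was also the only one with a region in its body. That is 10% of the genes, where 11.9% of all protein-coding genes had a region at a promoter and 12.3% had one in the body. Within 100 kb, 6 of the 10 genes had a region (60%), against 40.4% of all protein-coding genes. These windows held 10 distinct regions, on 12 rows. For 3 of the 10 regions the nearest annotated TSS was that of a streak gene, namely Mixl1, T and Pdgfra, so that 3 of the 10 genes had a region of their own (30%), against 12.4% of all protein-coding genes. The other 7 regions were nearest to TSSs of neighbouring genes. At promoters and in bodies the shares were thus near those of all genes, and in a list of 10 a single gene moves a share by 10 percentage points. The map of regions by distance from the TSS shows the layout at each gene.

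**Figure D1:**
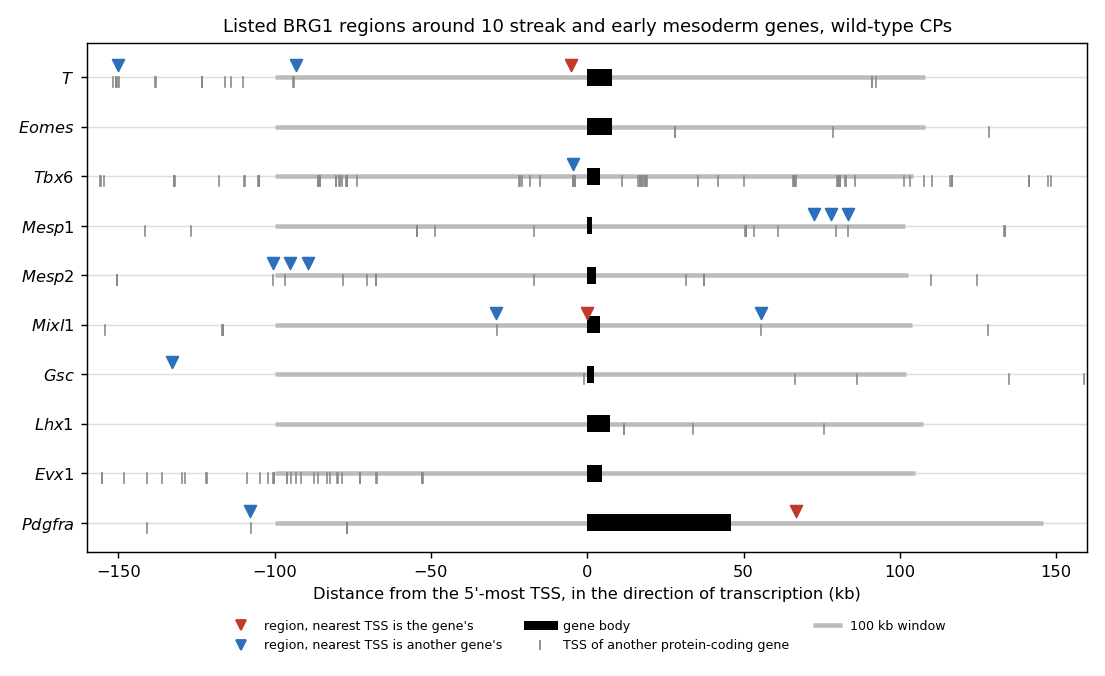
Listed BRG1 regions (triangles, drawn at the region's midpoint) around the 10 genes; the x axis gives the distance in kb from each gene's 5′-most TSS, positive in the direction of transcription, black bars are gene bodies, pale bars the 100 kb windows and small ticks the TSSs of other protein-coding genes. Red triangles, at T, Mixl1 and Pdgfra, mark regions whose nearest TSS is that of the gene, blue triangles those nearer to another gene, and Eomes, Gsc, Lhx1 and Evx1 have no triangle in their windows.

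The sequences that carry these results are shown first, each read from mm9 in lower case. Words of transcription factors of this stage and of CPs are in capitals. The 5 words, searched on both strands, were AGGTGTGA for the T-box family, AGATAA for GATA zinc finger factors, CTTTGAT for the WNT effectors TCF/LEF, AATNNACA for the Nodal effector FOXH1, and TAATCC for homeodomains of the goosecoid type. No match shown overlaps another. The central 300 bases of the region upstream of T, chr17:8622046-8622345 on the plus strand, are shown for their pair of GATA words. The word occurred at least once in the central 300 bases of 8.72% of all distinct regions, most of which lay at promoters. Over their whole width, 24.9% of the regions away from promoters held it. The region beyond Pdgfra, chr5:75614926-75615025 on the plus strand, is shown whole, as is the narrower of the pair of regions shared by the windows of Mesp1 and Mesp2, chr7:86860666-86860765 on the plus strand. Neither held any of the words. For Mixl1 the coding part of its region, chr1:182627006-182627143 on the minus strand, is shown from the start codon on.
T upstream region, central bases: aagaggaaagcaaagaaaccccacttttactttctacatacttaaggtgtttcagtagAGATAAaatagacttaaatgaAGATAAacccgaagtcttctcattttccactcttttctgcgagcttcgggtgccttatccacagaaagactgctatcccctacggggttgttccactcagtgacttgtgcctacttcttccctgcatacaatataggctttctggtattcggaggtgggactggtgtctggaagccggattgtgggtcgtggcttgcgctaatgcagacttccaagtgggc
Pdgfra downstream region: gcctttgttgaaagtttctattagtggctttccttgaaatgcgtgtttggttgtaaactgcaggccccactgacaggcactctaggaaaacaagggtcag
Mesp1 and Mesp2 shared region: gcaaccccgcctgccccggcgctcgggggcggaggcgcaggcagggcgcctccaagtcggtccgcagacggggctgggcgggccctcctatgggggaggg
Mixl1 region, coding part: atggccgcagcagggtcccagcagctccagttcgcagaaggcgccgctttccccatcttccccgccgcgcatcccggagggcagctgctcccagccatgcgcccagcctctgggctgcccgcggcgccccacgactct

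The 200 bases before the TSS are given for Mixl1, whose promoter had a region, and for T and Eomes, whose promoters had none. They lie at chr1:182627166-182627365 on the minus strand, chr17:8627088-8627287 on the plus strand and chr9:118387130-118387329 on the plus strand. The Mixl1 stretch was 74% G and C with 28 CpG dinucleotides, that of T 61.5% with 10, and that of Eomes 46.5% with 7. Mixl1 held the TCF/LEF word once, as did 2.35% of the same stretches of all protein-coding genes, and T and Eomes held none of the 5 words in these stretches.
Mixl1 promoter, upstream: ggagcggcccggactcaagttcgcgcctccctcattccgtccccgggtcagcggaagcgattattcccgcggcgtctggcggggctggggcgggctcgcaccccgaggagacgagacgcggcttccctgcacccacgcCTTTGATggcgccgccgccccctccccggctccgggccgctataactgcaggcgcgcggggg
T promoter, upstream: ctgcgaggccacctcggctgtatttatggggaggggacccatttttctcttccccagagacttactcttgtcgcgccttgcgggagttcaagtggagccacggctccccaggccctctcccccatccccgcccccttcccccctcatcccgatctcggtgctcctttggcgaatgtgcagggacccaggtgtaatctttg
Eomes promoter, upstream: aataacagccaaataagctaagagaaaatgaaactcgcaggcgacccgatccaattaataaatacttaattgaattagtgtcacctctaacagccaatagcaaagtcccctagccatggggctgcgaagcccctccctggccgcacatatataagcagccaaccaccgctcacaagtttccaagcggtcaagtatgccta

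Mixl1 encodes a paired-type homeobox factor that acts in the formation of mesoderm and endoderm from the streak. In mm9 the gene (ENSMUSG00000026497) spans 182623174 to 182627165 of chromosome 1, minus strand. Its region ran from 182627006 to 182627165, was 160 bp wide and on 1 row, and ended on the annotated TSS itself. It covered the 22 bases of the 5′ UTR and the first 138 coding bases, all in exon 1, and no base upstream of the TSS. The region was narrower than most, with 20.2% of distinct regions narrower still, and its GC content of 71.2% was close to the median of 72.4% over all distinct regions. The other 2 regions in the window of Mixl1 lay at promoters of its neighbours. The first, 720 bp wide on 2 rows from 182571186 to 182571905, was centred 47.5 bp from the nearest TSS of Lin9 and 55.6 kb downstream of the TSS of Mixl1. The other, 580 bp wide from 182655966 to 182656545, was at the TSS of Acbd3, 29.1 kb upstream.

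T encodes brachyury, the T-box factor that marks the streak and nascent mesoderm and is needed for posterior mesoderm and notochord. It spans 8627288 to 8635361 of chromosome 17, plus strand (ENSMUSG00000062327). No region overlapped its promoter or its body. A region of 1060 bp from 8621666 to 8622725, on 1 row, lay upstream between genes, with its midpoint 5.09 kb from the TSS and its edge 4.56 kb from the gene. This was the widest of the 10 regions. Among the 907 distinct regions that lay away from all annotated promoters, 49 (5.4%) were at least as wide. Its GC content was 49.4%, and 7.34% of all distinct regions had a lower one. It held 3 GATA words, which began 5184, 5163 and 4811 bp upstream of the TSS, the first pair of them inside the stretch shown above. GATA factors act in cardiac mesoderm and in CPs. A GATA word occurred in 24.9% of the regions away from promoters, and 15 of them (1.65%) held 3 or more. Since wide regions hold more words, the count was also set beside the 59 regions away from promoters of at least 1000 bp, of which 30 held a GATA word and 5 held 3 or more. A match to a word is not a measured site. The second region in the window of T, 280 bp wide from 8534006 to 8534285, lay 93.1 kb upstream within 1 kb of a TSS of Prr18.

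**Figure D2:**
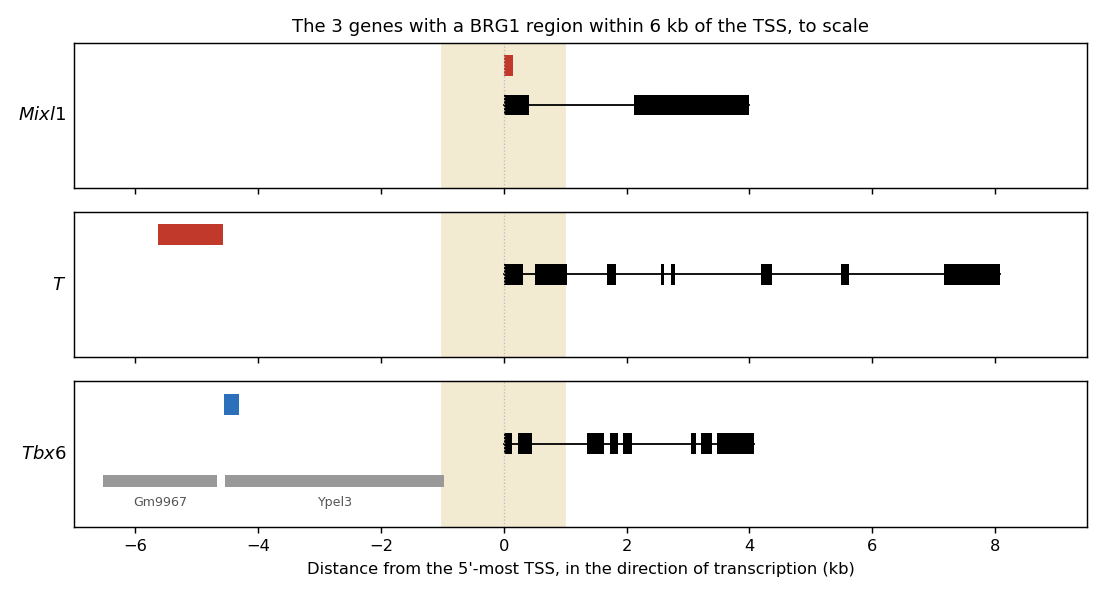
Gene models to scale for Mixl1, T and Tbx6; the x axis gives the distance in kb from the 5′-most TSS in the direction of transcription, black boxes are exons, grey bars neighbouring protein-coding genes and the shaded band is 1 kb either side of the TSS. The region of Mixl1 (red) starts at its TSS and runs into exon 1, that of T (red) lies 5.09 kb upstream, and the region before Tbx6 (blue) lies at the start of Ypel3.

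Tbx6 encodes a T-box factor of presomitic mesoderm, where it sets mesodermal against neural fate. It spans 133924997 to 133929074 of chromosome 7, plus strand (ENSMUSG00000030699). The single region in its window, 240 bp wide from 133920446 to 133920685, was centred 4.43 kb upstream of the Tbx6 TSS. It was nevertheless 46.5 bp from a TSS of Ypel3, a neighbour on the same strand that ends 968 bp before Tbx6 begins, and it also lay within 1 kb of a TSS of Gm9967. The regions upstream of T and of Tbx6 were thus at like distances from the TSS, with 12.9% and 12.8% of protein-coding genes having a closer region, but the first lay between genes and the second at another gene's promoter.

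Eomes encodes the T-box factor that acts in cardiac mesoderm upstream of Mesp1 and in definitive endoderm. It spans 118387330 to 118395250 of chromosome 9, plus strand (ENSMUSG00000032446), and had no region at its promoter, in its body or within 100 kb. The nearest region, 160 bp wide from 118058986 to 118059145, was 328.3 kb upstream at a promoter of Cmc1, and 65.2% of protein-coding genes had a closer one. Among the 3 T-box genes, the distance to the nearest region was therefore shortest for Tbx6 and T and longest for Eomes, and among them T alone had a region nearest to its own TSS.

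Mesp1 and Mesp2 encode related bHLH factors, of which Mesp1 acts in early cardiac mesoderm and Mesp2 in the segmentation of somites. They are neighbours on chromosome 7, on opposite strands, with 16.9 kb between their TSSs, so that their windows overlap and the counts of the pair are not independent. With the pair counted as 1 locus, 5 loci in place of 6 genes had a region within 100 kb. Mesp1 (ENSMUSG00000030544) lies from 86937127 to 86938674 on the minus strand and Mesp2 (ENSMUSG00000030543) from 86955613 to 86958317 on the plus strand. No region lay between them or in either. Both windows held the region of 660 bp on 2 rows from 86865886 to 86866545, at the transcribed end of Plin1, which codes for a protein of lipid droplets. It was 72.5 kb from the TSS of Mesp1 and 89.4 kb from that of Mesp2, and the nearest TSS was that of Kif7, at 7.14 kb. Both also held the region of 100 bp from 86860666 to 86860765, which lay between genes, 1.64 kb from the TSS of Kif7. One more region, of 240 bp from 86855026 to 86855265 at a promoter of 9330171B17Rik, was 81.9 kb from Mesp1 and inside its window. From Mesp2 it was 100.3 kb away, just outside. The region that lay just inside for Mesp2 was 94.8 kb from the gene.

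Pdgfra encodes the alpha receptor for platelet-derived growth factors and is a surface marker of nascent and cardiac mesoderm, the only receptor among the 10. It spans 75548316 to 75594229 of chromosome 5, plus strand (ENSMUSG00000029231). Its window held 1 region, 100 bp wide from 75614926 to 75615025, which lay between genes 20.7 kb past the end of Pdgfra and 62.8 kb from the nearest Pdgfra TSS. No other annotated TSS was closer to it. Its GC content of 46% was the lowest of the 10 regions, and 3.22% of all distinct regions had a lower one. A region at a promoter of Chic2 lay 107.8 kb upstream, outside the window.

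Gsc, Lhx1 and Evx1, homeobox genes of the organizer (Gsc and Lhx1) and of the posterior streak (Evx1), had no region within 100 kb. Gsc (ENSMUSG00000021095, chromosome 12, minus strand, 105709419 to 105711537) was 132.9 kb from the nearest region, of 180 bp from 105844346 to 105844525. Lhx1 (ENSMUSG00000018698, chromosome 11, minus strand, 84331479 to 84338923) was 175.9 kb from the nearest, of 200 bp from 84514766 to 84514965. Evx1 (ENSMUSG00000005503, chromosome 6, plus strand, 52263492 to 52268372) lies beside the HoxA cluster, and its nearest region, of 460 bp from 51220766 to 51221225, was 1042 kb upstream. Within 1 Mb of the TSS there were 3 regions for Gsc, 9 for Lhx1 and 0 for Evx1. Of all protein-coding genes, 44.8% had a closer region than Gsc, 51.4% than Lhx1 and 85.9% than Evx1.

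The nearest region was centred a median of 80.9 kb from a TSS of the 10 genes, between 0.0795 kb at Mixl1 and 1042 kb at Evx1. For all protein-coding genes the median was 165.8 kb, and the quartiles were 46.3 and 533.1 kb. The 10 genes were thus spread along the curve of all genes, with Mixl1, Tbx6 and T below the lower quartile and Evx1 above the upper one. The median number of other protein-coding genes with a TSS in the window was 2.5 for the 10 genes and 4 for all. Among genes with 0 or 1 such neighbour, as at Eomes and Lhx1, 29.4% had a region within 100 kb. The share was 40% with 2 or 3 neighbours, 44.3% with 4 to 7 and 43.2% with 8 or more, as at Tbx6.

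**Figure D3:**
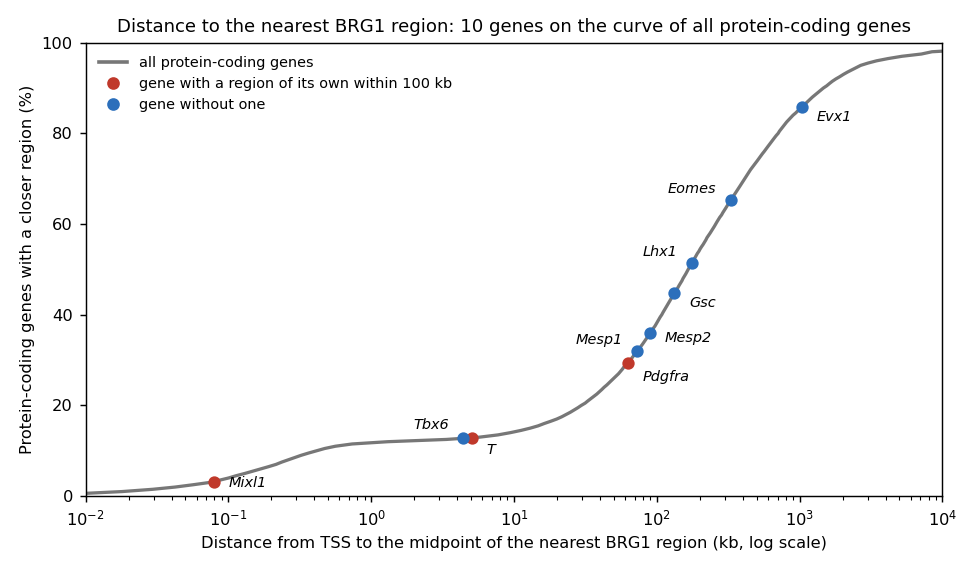
Distance from TSS to the midpoint of the nearest BRG1 region (x axis, kb, log scale) and the share of protein-coding genes with a closer region (y axis, percent); the grey line is all 22350 protein-coding genes and the points are the 10 genes, in red where a region within 100 kb is nearest to the gene's own TSS. The points run from Mixl1 at 0.0795 kb through the close pair of Tbx6 and T to Evx1 at 1042 kb.

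The promoters of the 10 genes were compared with others by base composition. Over 1 kb either side of the 5′-most TSS, protein-coding genes with a region at a promoter had a median GC of 58% and a median ratio of observed to expected CpG of 0.725, and those without had 50.2% and 0.41. The 10 genes had medians of 57.4% and 0.643. Of them, T, Eomes, Mixl1, Gsc and Lhx1 had at least 55% GC and a ratio of at least 0.6, limits set after the list had been seen, and 1 of these 5 had a region at the promoter. Among all 4553 protein-coding promoters of that composition, 1621 (35.6%) had one, and among the remaining promoters 5.88%. Gsc had the highest ratio of the 10, at 0.89, and no region within 100 kb. The lowest ratio was that of Tbx6, at 0.301.

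**Figure D4:**
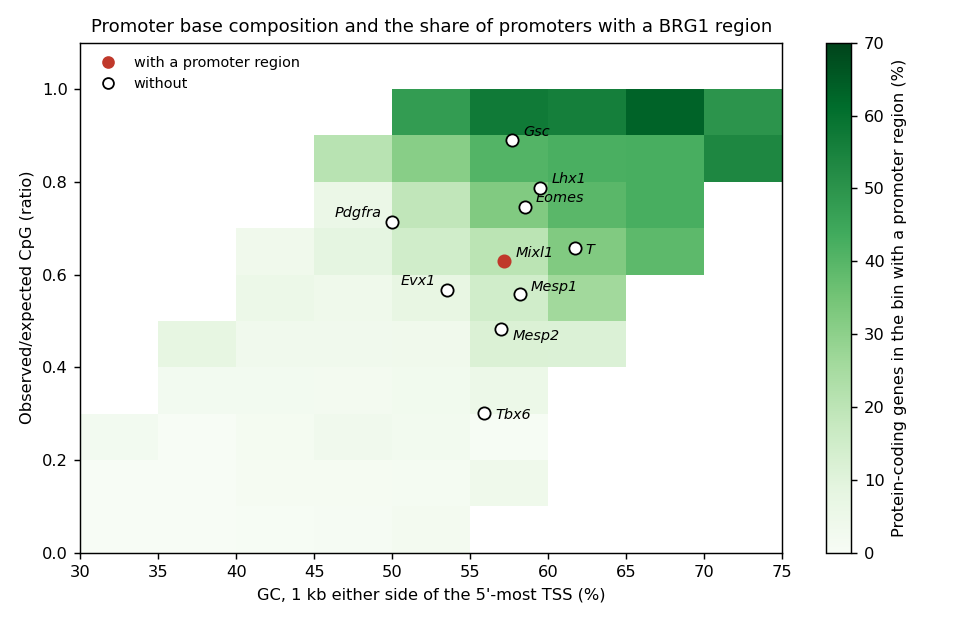
Promoter GC (x axis, percent) against the ratio of observed to expected CpG (y axis) over 1 kb either side of the 5′-most TSS; green shading gives the share of all protein-coding genes in each bin that had a region at a promoter, with bins under 20 genes left white, and circles are the 10 genes. Only Mixl1 (filled) had a promoter region, while Gsc, Lhx1, Eomes, Pdgfra and T (open) lie at higher ratios without one.

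Whether reads of the length used, 75 bases, can be placed at these promoters was checked in the genome. Of the stretches of 75 bases within 1 kb of the 5′-most TSS, each occurred once in the mm9 chromosomes for 9 genes, and 98.4% did so for Mixl1. All such stretches of the 10 regions occurred once, and the windows held no undetermined base. The depth of the libraries over these promoters is not known from the list.

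Set side by side, the 10 regions fell into 2 kinds by base composition. Mixl1's region, the 5 at promoters of neighbours and the 100 bp region near Kif7 had GC contents from 71.2% to 80%, and those at T, Pdgfra and Plin1 from 46% to 56.1%. Widths ran from 100 to 1060 bp. Of the 10 regions, 6 lay at an annotated promoter of any gene (73.9% of all distinct regions did). The region upstream of T was the single one of the 10 with any of the 5 words, GATA. Over all distinct regions, 10.1% held the GATA word, 0.921% the T-box word, 2.51% the TCF/LEF word, 5.79% the FOXH1 word and 5.18% the goosecoid-type word.

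**Figure D5:**
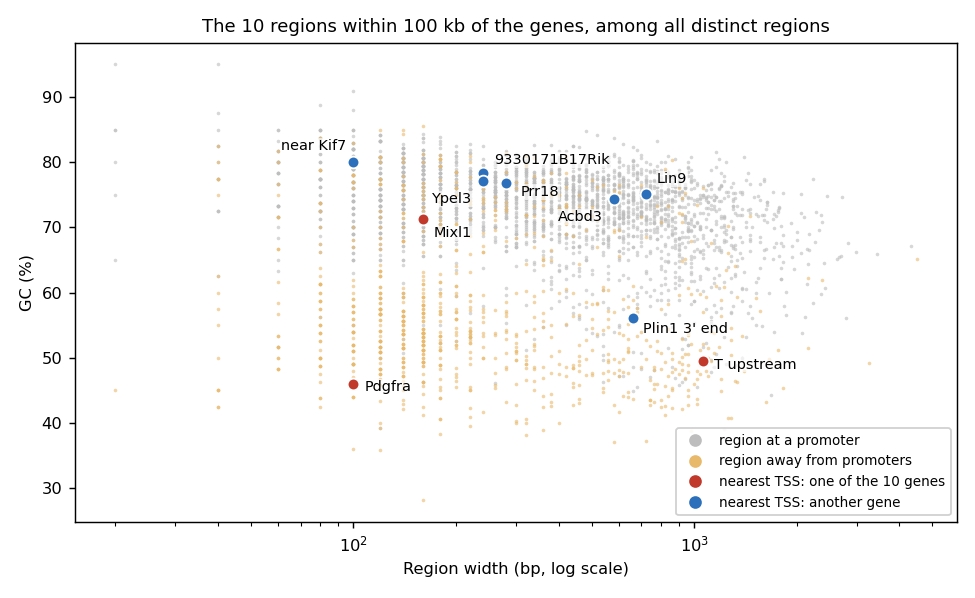
Width (x axis, bp, log scale) and GC content (y axis, percent) of all 3473 distinct regions, grey at promoters and orange away from them; large points are the 10 regions within 100 kb of the genes, red where the nearest TSS is that of a streak gene and blue otherwise. Labels name a gene at or near each region. The nearest TSS to the region labelled Plin1 was that of Kif7. The region upstream of T is wide (1060 bp) and low in GC (49.4%), and that beyond Pdgfra is narrow (100 bp) and lower still (46%).

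Other genes of the streak and early mesoderm, 25 in number, were read from the same list. Of these, 6 had a region at a promoter (24%), 8 had one in the body (32%) and 17 had one within 100 kb (68%), where 11.9%, 12.3% and 40.4% of all protein-coding genes did. Among 8 ligands, the promoters of Fgf8, which guides cells out of the streak, and of the Notch ligand Dll1 had a region, centred 0.768 and 0.0385 kb from an annotated TSS. The bodies of Bmp4 and Wnt3 also held a region, that of Bmp4 460 bp wide, 2.87 kb downstream of a TSS and nearest to the TSS of Gm15222. For Nodal and Wnt3, the nearest regions lay 34.6 and 24.3 kb upstream, at X99384 and Wnt9b. Among 3 receptors and cofactors, the FGF receptor gene Fgfr1 had a region at a promoter, 0.0645 kb from a TSS, whereas the VEGF receptor gene Kdr had none within 643.4 kb. Among 10 effectors and transcription factors, Smad2, which carries the Nodal signal, and Cdx1 of the posterior streak had one, of 180 and 900 bp. Among 4 inhibitors, Axin2, a feedback inhibitor of WNT signalling, had one of 640 bp. The Nodal inhibitor genes Lefty1 and Lefty2 were 208.9 and 167 kb from the nearest, which was the region at Acbd3 in the window of Mixl1. The promoter regions of Dll1 and Fgfr1, with 6 and 13 annotated TSS positions, lay more than 1 kb from the 5′-most TSS. The promoters of Fgf8, Smad2, Cdx1 and Axin2 had at least 55% GC and a CpG ratio of at least 0.6. Those of Dll1 and Fgfr1 did not. Of all promoters of that composition, 35.6% had a region. Whether TSS number or composition bears on the shares of the 25 genes was not tested.

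Beside 15 genes of the later CP stage, the counts of the 10 genes were lower at promoters and equal in share within 100 kb. Of the CP genes, 3 (20%) had a region at a promoter, namely Isl1, Smarcd3 and Hcn4. Smarcd3 encodes a BAF subunit and Hcn4 an ion channel. Of the 11 CP genes for transcription factors, 1 had a region at a promoter, as did 1 of the 9 such genes among the 10. Between genes of that kind the counts at promoters were thus alike. In the body 5 of the 15 CP genes (33.3%) had a region, and 9 (60%) had one within 100 kb. Of all protein-coding genes, 11.9% had a region at a promoter, 12.3% in the body, 40.4% within 100 kb and 12.4% one of their own. A region within 100 kb was nearest to the gene's own TSS for 7 of 15 CP genes (46.7%), for 6 of the 25 other streak genes (24%) and for 3 of the 10 (30%). The differences between these short lists were not tested, and the ranges of distance to the nearest region overlapped, from 0.0075 to 3312 kb for the CP genes and from 0.0795 to 1042 kb for the 10.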

How the data were processed

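Chromatin of CPs was cut with micrococcal nuclease before BRG1 was precipitated. The authors placed trimmed single reads on mm9 using Bowtie, kept those above a least mapping quality, and took as regions the bins that passed a P-value against input. Bowtie's version, and how the libraries were combined, are not given in the sources used here. They deposited 1 list of 3 columns, chromosome, start and end in bp, per the file itself, with all ends on a grid of 20 bp. Its number of rows is that given in the paper for CP regions, and its number of distinct regions that given there for cardiomyocyte regions. The list was used as labelled, for CPs, but whether lists or numbers were mixed up was not tested, and if the label is wrong, all values given for CPs are those of another stage.

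Repeated rows were counted once. Starts were read as counted from 0 and are printed counted from 1. Genes and TSSs came from GENCODE release M1 on the same assembly, and all annotated transcripts gave TSSs. Of 37310 annotated genes, 22350 were protein coding on the 20 chromosomes with regions. Fgfr1 has a pair of gene records, and that with more transcripts was used. Overlaps of 1 bp counted, and the nearest TSS was taken from a region's midpoint. Python 3.11.15, numpy 2.4.6, numba 0.67.0 and matplotlib 3.10.9 were used. The overlap counts were tested on a simulated list and equalled those of bedtools 2.31.1.

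The genes, the lists of other streak and CP genes and the words were chosen with earlier results of these data known. The text names all 10 genes, each neighbour with a region at its promoter in a window, and the genes of the other lists with a region at a promoter. Genes outside that rule (Bmp4, Nodal, Wnt3, Kdr, Lefty1, Lefty2, and neighbours such as Kif7, Plin1, Cmc1 and Chic2) were named after their values had been seen.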

Additional observations from a re-analysis of the deposited data

How the results depend on the processing

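The 6 counts and distances of the 10 genes were each recomputed in turn, 25 times over, with 2 of these alternatives added after the list had been seen (the Mesp1 and Mesp2 locus counted once, and promoters rich in GC and CpG only). Under 22 of them the value stayed within a factor of 1.5. Joining regions up to 1 kb apart could not change a count, since the smallest gap was 1040 bp. Nor could the limit to promoters rich in GC and CpG, since that of Mixl1 is of this kind. The change from 6 genes to 4 with windows of 50 kb lay at the limit of 1.5. Promoters of 5 kb either side of a TSS held a region at 3 genes in place of 1, as the regions upstream of T and Tbx6 came in, where 12.9% of all protein-coding genes had one. Bodies without the promoter held a region in 0 genes in place of 1, because the region of Mixl1 lies at its TSS. Windows of 50 kb held 5 distinct regions in place of 10, around 4 genes (28.5% of all protein-coding genes), and windows of 200 kb held 14 around 8 genes (55.6%). No paired analysis was possible because both ChIP libraries share 1 set of positions without values. A missing region can mean too few reads as well as no binding, and no stricter threshold could be tried, since no region carries a score.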

Other observations

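Downstream of the region at Ypel3, no further region was listed for 455.7 kb, on chromosome 7 from 133920686 to 134376425. This stretch holds Tbx6 and starts of 28 protein-coding genes in all. Of the 3453 stretches between neighbouring regions, none of the same length or shorter held more starts of protein-coding genes, while 85 stretches of any length did. Among the stretches that held the streak genes, this was so only for that of Tbx6. For the others, from 18 (Gsc) to 651 (Eomes) stretches of the same length or shorter held more starts. Of the 28 promoters, 2 had at least 55% GC and a ratio of observed to expected CpG of at least 0.6. Over all protein-coding genes, 20.4% had a promoter of that composition. Of the runs of 75 bases in the stretch, 98.8% occurred once in mm9.

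Evx1 lay in a stretch of 2179 kb without a region, on chromosome 6 from 51221226 to 53400685, which also holds 12 Hox genes of the HoxA cluster. It held starts of 24 protein-coding genes, 8 of them with promoters of that composition, and 263 of the 3453 stretches (7.62%) were longer. Here 97.8% of the runs of 75 bases occurred once in mm9. Gsc lay in a stretch of 1728 kb with 36 starts of protein-coding genes, 4 of them with promoters of that composition. Longer stretches numbered 352 of the 3453 (10.2%). For the stretches of the other genes, Mixl1 aside, the share of longer ones ran from 22.9% (Eomes) to 63.5% (Pdgfra). These shares count stretches and not genes, and a gene falls more often in a long stretch. Counted by gene, 44.8% of protein-coding genes had a closer region than Gsc and 85.9% than Evx1. How many runs of 75 bases occur once was not computed for the stretch around Gsc. Why these stretches had no listed region was not tested.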
